A study of Mus musculus with 12 samples.

Results

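The genes described here are 10 members of the semaphorin signalling system: the ligands Sema3a, Sema3c, Sema3f, Sema5a and Sema6a, the receptors Plxna2, Plxna4 and Plxnd1, and the coreceptors Nrp1 and Nrp2. They were taken as a family list, and every array probe that the deposited tables name for one of them was kept. This gave 32 probes, of which 24 were among the 31448 probes (23397 genes) that could be matched between the 2 chips of the study and 8 were on chip 2 alone.

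The study asked how loss of Gbx2, a homeobox transcription factor of the developing thalamus, changes gene expression there. RNA came from microdissected tissue of CD1 mouse embryos at E12.5 and was hybridised to Illumina bead arrays. Wild-type (WT) and Gbx2-knockout (KO) thalamus were each represented by 4 arrays, replicates 1 and 2 on chip 1 and replicates 3 and 4 on chip 2. Chip 1 also held 1 WT epithalamus array and 1 WT prethalamus array. Replicate 5 of each genotype is marked as an excluded outlier in the labels and was left out of the main comparisons; it enters only values given with replicate 5 named. The labels describe neither the Gbx2 allele nor the litters, and they do not say how many embryos went into each RNA sample. A p-value here therefore covers the spread between these samples, which may be technical. The tissue field reads thalamus for all 12 arrays. The region names come from the sample descriptions.

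Semaphorins are secreted or membrane-bound guidance proteins that steer growing axons, migrating neurons and vessels, most often by repulsion. Plexins are their signalling receptors, and neuropilins are coreceptors that bind the secreted class 3 semaphorins and hand the signal to A-type plexins. In the embryonic forebrain the system helps to set the paths of thalamic axons to the cortex and of habenular axons to the midbrain.

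Each probe is a 50-base oligonucleotide, and its sequence was decoded from the identifier that the deposited tables give it. The sequences shown are those of the probes that the results turn on. Capitals mark the polyadenylation signal AATAAA in the Sema3f probe, and in the Nrp1 pair the 44 bases that both probes share. The first pair of Plxna4 probes was designed on one predicted transcript record and the last on the curated record, and they share no such overlap.
Sema3a ILMN_2684289: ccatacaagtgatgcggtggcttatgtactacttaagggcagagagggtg
Sema3f ILMN_1248740: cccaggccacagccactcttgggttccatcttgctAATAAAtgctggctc
Sema5a ILMN_2604226: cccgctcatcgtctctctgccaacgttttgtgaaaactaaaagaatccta
Plxna4 ILMN_2520582: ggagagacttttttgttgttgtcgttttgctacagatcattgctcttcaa
Plxna4 ILMN_1214617: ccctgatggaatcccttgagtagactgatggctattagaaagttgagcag
Plxna4 ILMN_2635986: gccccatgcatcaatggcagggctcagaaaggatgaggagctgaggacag
Nrp1 ILMN_1237197: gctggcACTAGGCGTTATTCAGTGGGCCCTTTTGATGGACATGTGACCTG
Nrp1 ILMN_2669912: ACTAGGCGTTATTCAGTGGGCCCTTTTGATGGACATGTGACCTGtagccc
Nrp2 ILMN_2480957: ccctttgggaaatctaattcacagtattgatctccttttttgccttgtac
AATAAA, searched on the sense strand, was in 1 of the 20 member probes whose sequences were examined and in 2.0% of all 31448 probes; on either strand it was in 3.64%.

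Levels are log2 bead intensities after background correction and quantile normalisation within each chip. The chips differ in overall brightness, so levels were compared within a chip, and the levels of different probes are not set against each other. A probe was called detected on an array at a detection p under 0.05. The share of probes detected per array was 30.7% to 36.04% for chip 1 and 44.8% to 46.4% for chip 2. The Gbx2 probe read 13.73 and 13.30 in WT thalamus and 13.04 and 12.77 in KO thalamus on chip 1, and 15.94 and 15.73 against 13.76 and 14.05 on chip 2. It thus stayed bright in the KO and was lower on every KO array than on the WT arrays of its chip (difference -1.27 ± 0.27 SE on the log2 scale, n = 4 per genotype, limma adjusted p = 0.0425). It read 6.35 in the epithalamus array and 8.27 in the prethalamus array. Of the thalamic markers Gbx2, Lhx9, Lhx2, Olig3, Ntng1, Rora, Tcf7l2 and Slc17a6, 7 genes were tested and 3 fell in the KO (Gbx2 itself, Ntng1 and Rora). Of the epithalamic and habenular markers 9 were tested and 3 rose (Irx2, Cntn2 and Rspo1), and of the progenitor and cell division markers 9 were tested and 2 rose (Top2a and Mcm5). None of 6 neuronal and none of 8 endothelial marker genes passed the test in limma. At an unadjusted p under 0.05 there were 2 of 8 neuronal probes and 0 of 8 endothelial probes, beside 20.7% of all probes tested.

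Across both chips, 15 member probes of 9 genes were detected on at least 4 of the 8 kept thalamus arrays and were tested. Sema3f, a secreted ligand, and Plxna4, an A-type plexin, each had 1 probe that fell in the KO, and no member probe rose. That is 2 of 15 probes, while 2.67% of all 13215 probes tested passed an adjusted p under 0.05, 1.32% lower and 1.35% higher in the KO. The Plxna4 probe met the detection filter through its 4 WT arrays, the group where it is high, and 1 KO array detected it too. The Plxna4 call was lost without that filter. The Sema3f and Plxna4 probes were those with every KO array below every WT array of its chip, an order found in 8.97% of all probes tested; the opposite order, found in 10.6%, occurred in none. The median difference of the 15 probes was -0.11, with 10 of 15 below 0, against -0.0036 and 50.5% over all probes tested. At an unadjusted p under 0.05 there were 5 of 15 member probes, beside 20.7% of all probes. Because a tissue piece was measured as a whole, fewer cells of a type and less RNA per cell cannot be told apart.

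**Figure D1:**
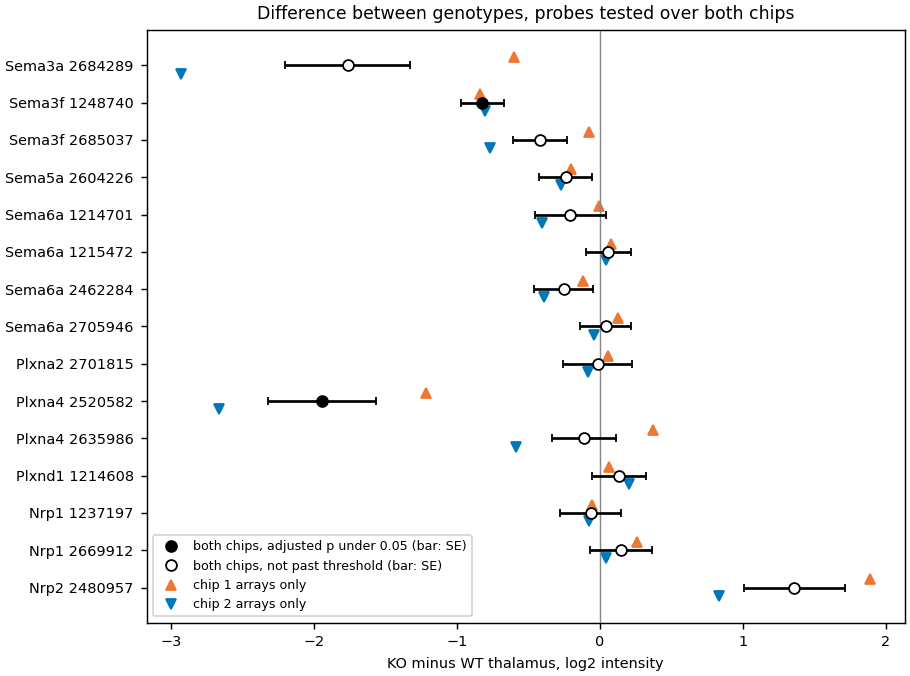
KO minus WT difference in log2 intensity (x axis) for the 15 member probes tested over both chips (y axis); circles give the joint fit with its standard error, filled where the adjusted p was under 0.05, and triangles give the difference within each chip. The Sema3f probe at -0.82 and the Plxna4 probe at -1.94 are filled, and the 2 chips gave the Sema3a probe differences of -0.60 and -2.93.

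Among the ligands, Sema3f fell by a similar amount on both chips. It is a secreted repellent that signals mainly through Nrp2 and A-type plexins. On chip 1 its probe ILMN_1248740 read 9.57 and 9.78 in WT and 8.78 and 8.88 in KO thalamus, and on chip 2 it read 12.44 and 12.43 in WT and 11.52 and 11.75 in KO. The genotypes did not overlap on either chip, and the drop was of about the same size on both, -0.84 on chip 1 and -0.80 on chip 2. The joint difference was -0.82 ± 0.15 (SE, n = 4 per genotype), a 1.77-fold lower intensity, with a limma adjusted p of 0.0268 and rank 123 among the 13215 probes. A further Sema3f probe on chip 2 alone, ILMN_2635631, read 11.54 and 11.37 in WT and 10.74 and 10.97 in KO. It was read on the same chip 2 arrays and did not pass (-0.61 ± 0.29 SE, n = 2 per genotype, limma adjusted p = 0.317). The third, ILMN_2685037, was detected only on the arrays of chip 2, where it read 7.19 and 6.92 in WT and 6.22 and 6.36 in KO. Its joint difference was -0.42 ± 0.19 (limma adjusted p = 0.239). The call for Sema3f held when WT replicate 1 was left out and was lost, with adjusted p between 0.0507 and 0.0938, when any other 1 of the 8 arrays was left out, although the difference stayed between -0.87 and -0.78. With replicate 5 of each genotype added it was -0.46 (limma adjusted p = 0.722).

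The Sema3a probe differed between genotypes mainly on chip 2. Sema3a, the founding class 3 semaphorin, collapses growth cones through Nrp1 and A-type plexins. On chip 2 the probe ILMN_2684289 read 9.52 and 9.33 in WT and 6.37 and 6.63 in KO thalamus, and all 4 arrays detected it. On chip 1 it read 6.61 and 5.57 in WT and 5.37 and 5.61 in KO, and only WT replicate 1 and KO replicate 2 were above the detection threshold. The genotypes were thus far apart on chip 2 and overlapped on chip 1. Fitted over both chips the difference was -1.76 ± 0.43 (SE, n = 4 per genotype) with a limma adjusted p of 0.0672, just outside the threshold. Fitted on chip 2 alone it was -2.93 ± 0.29 (n = 2 per genotype), with a limma adjusted p of 0.0110. Of the 20 member probes tested on chip 2 this was the 1 that passed, beside 0.524% of all 21369 chip 2 probes, 0.426% lower and 0.0983% higher in the KO; unadjusted, 5 of 20 member probes and 18.1% of all probes had a p under 0.05. The difference on chip 2 exceeded that on chip 1 by -2.33 on the log2 scale (limma interaction, unadjusted p = 0.000859, adjusted p = 0.516). No probe passed this interaction test after adjustment; 6.1% of all probes and 3 of 15 member probes did so unadjusted. The joint call was gained with median scaling (adjusted p = 0.0249), in the deposited log2 tables (0.0319), with array weights (0.0390) or without WT replicate 2 (0.0312). The chip 2 call was lost in the limma fit without the detection filter (adjusted p = 0.133), without KO replicate 3 (0.135) or with replicate 5 added (0.0960). The other Sema3a probe, ILMN_2572191, was detected on none of the 8 arrays.

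Sema5a was detected on all kept arrays and did not separate the genotypes. Sema5a is a membrane semaphorin with thrombospondin repeats that can attract or repel axons. Its probe ILMN_2604226 read 11.01 and 10.98 in WT and 10.98 and 10.61 in KO on chip 1, and 14.16 and 13.71 in WT and 13.41 and 13.91 in KO on chip 2. The ranges overlapped on chip 2, while on chip 1 both KO arrays lay below both WT arrays, with the higher KO and the lower WT value equal at 2 decimals. The joint difference was -0.24 ± 0.18 (limma adjusted p = 0.495). A chip 2 probe, ILMN_2604224, differed by 0.19 ± 0.41 (limma adjusted p = 0.845), with WT at 13.01 and 11.98 and KO at 12.41 and 12.97. The remaining 3 Sema5a probes were each detected on 2 or fewer of the kept arrays.

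Sema6a, a membrane ligand of Plxna2 and Plxna4, was measured by 4 probes. Of these, ILMN_1214701 was detected on all 8 arrays and read 7.36 and 8.25 in WT and 7.81 and 7.78 in KO on chip 1, and 9.06 and 9.87 against 8.95 and 9.17 on chip 2. The joint differences of the 4 probes lay between -0.25 and 0.06, with adjusted p between 0.518 and 0.920 in limma. For ILMN_1215472 and ILMN_2462284 the chip 1 part of this is background, as no thalamus array of that chip detected them. On chip 2, where all kept arrays detected both, they differed by 0.04 and -0.39. Sema3c, a secreted ligand that can bind both neuropilins, was not tested: its probe ILMN_1238568 was detected on WT replicates 1 and 4 and on no KO array, and the chip 2 probe ILMN_2673323 on none. The first read 5.59 and 5.38 in WT and 5.12 and 5.41 in KO on chip 1, and 4.80 and 5.87 against 5.25 and 5.04 on chip 2, so the genotypes overlapped on both chips.

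**Figure D2:**
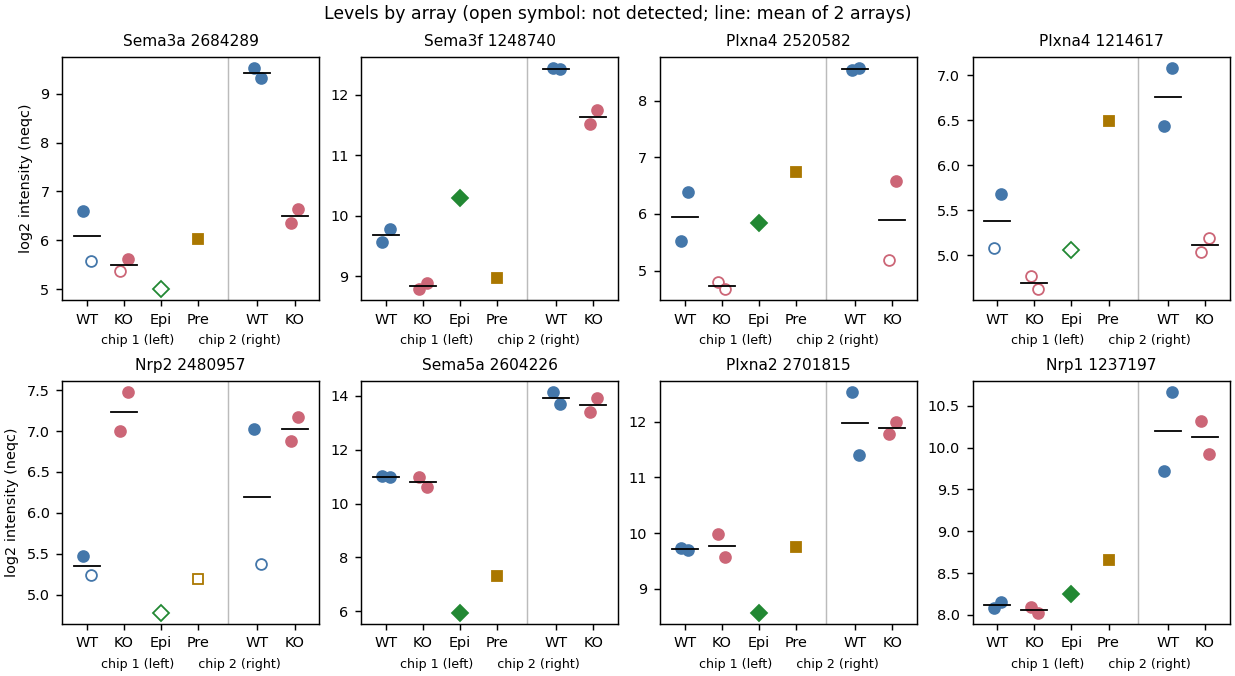
Log2 intensity (y axis, separate scale in each panel) of 8 member probes on the 10 arrays, with chip 1 to the left of the grey line and chip 2 to the right; blue circles are WT thalamus, red circles KO thalamus, the green diamond the epithalamus array and the brown square the prethalamus array, open symbols were not detected, and black lines are means of 2 arrays. KO lies below WT on both chips for Sema3f ILMN_1248740 and for Plxna4 ILMN_2520582, whereas Sema5a ILMN_2604226 is low in both regions outside the thalamus.

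Among the receptors, Plxna4 had 1 probe that fell in the KO. Plxna4 is an A-type plexin that transmits class 3 signals with neuropilins and also binds Sema6a. The probe ILMN_2520582 read 5.52 and 6.39 in WT and 4.80 and 4.68 in KO on chip 1, and 8.54 and 8.57 in WT and 5.19 and 6.59 in KO on chip 2. It was detected on all 4 WT arrays, which by themselves met the detection filter, and on KO replicate 4 alone among the KO arrays. The genotypes did not overlap on either chip. The joint difference was -1.94 ± 0.38 (SE, n = 4 per genotype) with a limma adjusted p of 0.0317. Because 3 of the 4 KO arrays did not detect the probe, this difference is set against background and gives no exact fold. Within the chips the difference was -1.21 and -2.67. Without background correction the difference was -0.97 (limma adjusted p = 0.0528).

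The other probe of the same transcript record, ILMN_1214617, was detected on 3 WT arrays and no KO array and met the filter on chip 2 only, through the WT arrays where it is high. Its values are a description and no support for the probe above. It read 6.44 and 7.08 in WT and 5.03 and 5.19 in KO there, a WT intensity at least 1.91-fold higher when the KO arrays are set to their lowest detected signal (limma adjusted p = 0.0831, measured means 6.76 and 5.11). On chip 1 it read 5.08 and 5.68 in WT and 4.77 and 4.62 in KO, and WT replicate 2 alone detected it. The probe of the curated record, ILMN_2635986, was detected on all 4 thalamus arrays of chip 1 and on none of chip 2. It read 5.41 and 5.94 in WT and 6.10 and 6.0 in KO on chip 1, with KO above WT (0.37, limma adjusted p = 0.710 on that chip). On chip 2, where all 4 values are background, it read 5.40 and 5.49 against 4.81 and 4.91, so the joint difference (-0.11 ± 0.22, limma adjusted p = 0.817) gives no direction. The remaining probe, ILMN_1230945, was detected nowhere. The chip 2 table gives 3 of these 4 probes other names, and with no transcript sequences to place them, which Plxna4 transcripts each one reads was not tested. The Plxna4 call was lost when KO replicate 1, 2 or 4 or WT replicate 2, 3 or 4 was left out (limma adjusted p between 0.0638 and 0.120). It was also lost without the detection filter (limma adjusted p = 0.115) and with replicate 5 added, where the difference was -1.31 (0.698).

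Plxna2, another A-type plexin and a Sema6a receptor, read 9.74 and 9.70 in WT and 9.98 and 9.56 in KO on chip 1, and 12.54 and 11.40 against 11.78 and 11.99 on chip 2. The genotypes overlapped on both chips (joint difference -0.02 ± 0.24, limma adjusted p = 0.981). Plxnd1, a receptor best known for vessel patterning, which binds Sema3e without a neuropilin, read 6.77 and 7.33 in WT and 7.04 and 7.19 in KO on chip 1. On chip 2 it read 8.33 and 8.83 in WT and 8.78 on both KO arrays (joint difference 0.13 ± 0.19, limma adjusted p = 0.722). The KO values lay within the WT range on both chips.

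Of the coreceptors, Nrp1 did not separate the genotypes. Nrp1 binds Sema3a and also vascular endothelial growth factor. Its probe ILMN_1237197 read 8.08 and 8.15 in WT and 8.10 and 8.03 in KO on chip 1, and 9.73 and 10.67 against 10.32 and 9.93 on chip 2 (joint difference -0.07 ± 0.21, limma adjusted p = 0.890). Its partner ILMN_2669912, which shares 44 of 50 bases and so is no separate measurement of another stretch, gave 0.15 ± 0.22 (limma adjusted p = 0.735).

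Nrp2, the main coreceptor of Sema3f, was higher on all KO arrays of chip 1 but not of chip 2. The probe ILMN_2480957 read 5.47 and 5.23 in WT and 7.0 and 7.48 in KO on chip 1, and 7.02 and 5.38 in WT against 6.88 and 7.18 in KO on chip 2. It was detected on all 4 KO arrays, which by themselves met the detection filter, and on WT replicates 1 and 3. WT replicate 3 lay inside the KO range of its chip. The chip 2 annotation gives this probe a name other than Nrp2, and which transcripts it reads was not tested. The joint difference was 1.36 ± 0.35 (SE, n = 4 per genotype) with a limma adjusted p of 0.0778, outside the threshold, and 1.89 and 0.83 within chips 1 and 2. Without WT replicate 3 it was 1.79 (limma adjusted p = 0.0089), and in the deposited log2 tables it was 0.83 (0.0455). It passed in no other setting of the joint fit. With 1 array left out the difference lay between 1.14 and 1.79, with limma adjusted p between 0.0089 and 0.227. The other 5 Nrp2 probes were each detected on 3 or fewer kept arrays. Of these ILMN_2766737, detected on 3, read 6.10 and 5.44 in WT and 6.03 and 6.49 in KO on chip 2, where the genotypes overlapped.

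Chip 1 by itself gave no call. Of 13 member probes tested there none passed in limma, beside 0 of 15835 probes in all; at an unadjusted p under 0.05 there were 3 of 13 and 9.49%.

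The markers that moved with genotype are given beside these differences as summed background-corrected intensities of the tested marker genes. The thalamic list summed to 19624 and 15378 in WT and 14038 and 12229 in KO on chip 1, and to 110845 and 96792 against 42867 and 50430 on chip 2. The epithalamic and habenular list summed to 6652 and 3398 in WT and 9617 and 9916 in KO on chip 1, and to 33428 and 15412 against 35922 and 40233 on chip 2. For progenitor and division genes the sums were 5706 and 3170 against 6396 and 6557, and 19458 and 21057 against 52173 and 30297. As sums, all 3 lists separated the genotypes on both chips, the thalamic list downward and the others upward. A sum is weighted to the brightest genes, and the thalamic sum includes Gbx2 itself, so its fall was in part fixed by the knockout. As mean log2 deviations from the chip's WT mean, the progenitor list overlapped on chip 1. It read 0.43 and -0.43 in WT against 0.28 and 0.32 in KO. The thalamic and epithalamic lists still separated on both chips by this measure, the thalamic list with Gbx2 included. The part of these 3 lists in the Sema3f, Sema3a, Plxna4 and Nrp2 differences was not tested. The neuronal list summed to 16047 and 16513 in WT against 15401 and 15664 in KO on chip 1, and to 72596 and 70049 against 46555 and 67649 on chip 2. Its sum too was lower in both KO arrays of each chip, and on chip 2 KO replicate 3 was lowest. Its mean log2 deviations overlapped on chip 2, with -0.055 and 0.055 in WT against -0.43 and -0.0021 in KO. The endothelial list, which bears on Nrp1 and Plxnd1, overlapped between genotypes on chip 1, with 691 and 788 in WT against 675 and 695 in KO, and on chip 2, with 2571 and 4079 against 2045 and 2908. Of the prethalamic and GABAergic list 2 genes, Gad1 and Slc32a1, were tested over both chips and neither passed in limma (median difference -1.48; 2 of 3 probes at an unadjusted p under 0.05). They summed to 53.0 and 808 in WT and 69.99 and 117 in KO on chip 1, which overlapped, and to 1274 and 1314 against 139 and 749 on chip 2, which did not. On chip 2 all 6 probes of this list had an unadjusted p under 0.05 and none passed after adjustment in limma, with Gad1, Gad2 and Slc32a1 lower and Dlx1 higher in the KO. This list was higher in WT replicate 2 than in WT replicate 1 and lowest of chip 2 in KO replicate 3. It was high in the prethalamus array at 4580, and Plxna4 ILMN_2520582 shared these orders. Elsewhere on chip 1 the orders differed. The list summed to 2061 in the epithalamus array, above both WT arrays, where the Plxna4 probe at 5.84 lay between them. KO replicates 1 and 2 were above WT replicate 1 for the list and below it for the probe. The part of this list in the Plxna4 difference was not tested. No meningeal marker was tested over both chips. On chip 2 Col1a1 (-1.80 ± 0.51 SE, limma adjusted p = 0.146) and Foxc1 (-1.13 ± 0.29, 0.121) were tested, with unadjusted p of 0.0084 and 0.0047. Neither passed after adjustment, and their part in the chip 2 differences of Sema3a and Plxna4 was not tested.

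The regions next to the thalamus were compared on chip 1, with 1 array each and hence no replicate check and no test. A difference was counted where the region array lay at least 1 log2 unit from both WT thalamus arrays in the same direction. The prethalamus array carried the markers of its label, with 6 of 6 prethalamic or GABAergic genes compared higher than in WT thalamus. The epithalamus array was mixed: of 8 epithalamic or habenular genes compared, Irx2 and Nr4a2 were higher, Etv1 and Gng8 were lower, and Gad1 and Slc32a1, which mark GABAergic neurons, were higher. It is called by its label with that limit. In both arrays thalamic markers were low, 4 of 7 in the epithalamus and 5 of 7 in the prethalamus.

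Sema5a set the thalamus apart from both regions. Its probe ILMN_2604226, which read 11.01 and 10.98 in WT thalamus, read 5.95 in the epithalamus array and 7.32 in the prethalamus array. These are mean differences of -5.05 and -3.68 on the log2 scale, or a 33.1-fold and 12.8-fold lower intensity. The epithalamus value was not far above the lowest detected signal of that array, 5.37, so its exact fold rests on the background correction. Uncorrected signals of the probe were 156 and 250 in the epithalamus and prethalamus arrays against 2769 and 2013 in WT thalamus. Both KO thalamus arrays of the chip, at 10.98 and 10.61, stayed at the thalamic level. Plxna2 was lower in the epithalamus array, at 8.57 against 9.74 and 9.70 (mean difference -1.15), and was at the thalamic level in the prethalamus array, at 9.76. Thus 2 of 13 member probes compared were lower in the epithalamus and none was higher, beside 0.663% lower and 0.911% higher of all 12074 probes compared. The Plxna2 difference fell short of the limit without background correction and with median scaling. In the prethalamus 1 of 14 was lower and none was higher, beside 0.89% and 1.26% of 12359 probes.

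Sema3f had an order across chip 1 that placed the KO thalamus beside the prethalamus. Its probe ILMN_1248740 was highest in the epithalamus array at 10.29, followed by WT thalamus at 9.78 and 9.57, the prethalamus array at 8.97 and KO thalamus at 8.88 and 8.78. The gap between the prethalamus array and the higher KO array was smaller than the spread of the WT arrays. Sema3c was detected in the epithalamus array at 6.56, 0.97 above the nearer WT thalamus array and so just short of the limit, and was not detected in the prethalamus array at 4.95. Both detected Plxna4 probes of the predicted record read higher in the prethalamus array, 6.75 and 6.49, than in either WT thalamus array, with the nearer array 0.36 and 0.80 below. The second, ILMN_1214617, was compared only through its detection in the prethalamus array, as 1 of the 2 WT arrays detected it. The Plxna4 probe of the curated record, ILMN_2635986, went the other way. It read 5.35 in the prethalamus array, below the WT arrays at 5.41 and 5.94. The Nrp1 probes read 8.66 and 7.88 in the prethalamus array, 0.51 and 0.52 above the nearer WT array, and at 8.24 and 7.47 in the epithalamus array they were close to WT thalamus. Nrp2 ILMN_2480957 was not detected in either region, at 4.78 and 5.19, while both KO thalamus arrays of the chip read 7.0 and 7.48. Sema3a ILMN_2684289 was not detected in the epithalamus array, and at 6.03 in the prethalamus array it lay between the WT thalamus arrays.

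**Figure D3:**
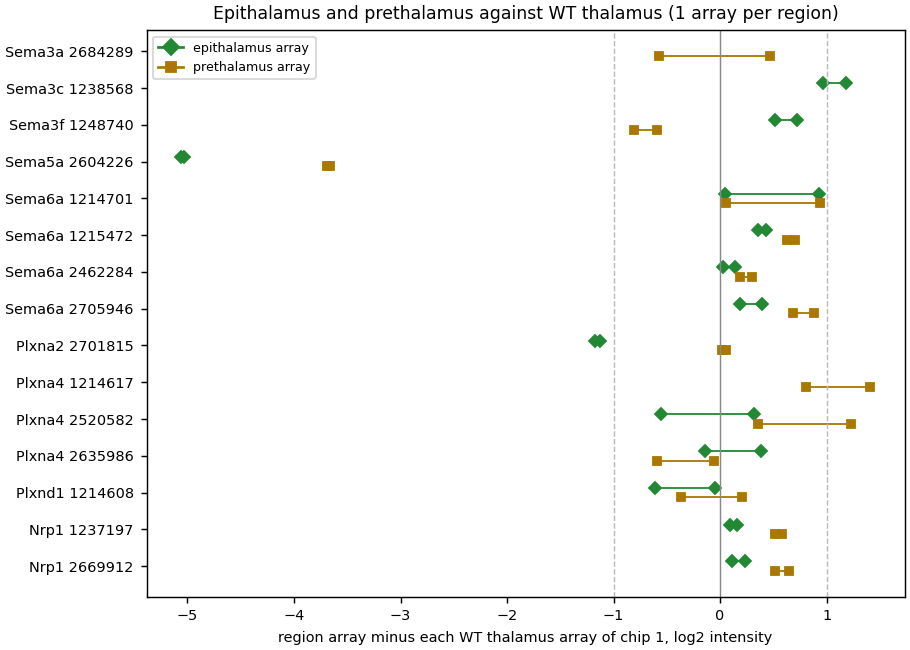
Difference in log2 intensity (x axis) between a region array and each of the 2 WT thalamus arrays of chip 1, joined by a line, for the member probes compared (y axis); green diamonds are the epithalamus array and brown squares the prethalamus array, and dashed lines mark a difference of 1. Sema5a lies near -5.05 and -3.68, and Plxna2 is past -1 in the epithalamus array only.

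Plxnc1 was the further plexin that fell. Of 21 other genes of these families 11 were tested over both chips, each by its brightest probe tested. Of these 1 fell and none rose, beside 1.32% lower and 1.35% higher of all 13215 probes tested. Their median difference was -0.31, with 1 of 11 above 0, against -0.0036 and 50.5% below 0 over all probes. At an unadjusted p under 0.05 there were 4 of 12 probes, beside 20.7% of all probes. Plxnc1 is the plexin that binds Sema7a. Its probe ILMN_2481902 read 6.46 and 6.53 in WT and 5.12 and 5.57 in KO on chip 1, and 9.72 and 10.33 against 8.63 and 8.96 on chip 2. The genotypes did not overlap on either chip, an order found in 8.97% of all probes tested. The difference was -1.19 ± 0.19 (SE, n = 4 per genotype, limma adjusted p = 0.0174). Another Plxnc1 probe, ILMN_2756855, detected on 2 arrays of each genotype, differed by -0.02 ± 0.17 (limma adjusted p = 0.960), so the probes of this gene disagreed. The call was lost without background correction (limma adjusted p = 0.0690), without KO replicate 1 (0.0714), KO replicate 4 (0.0527) or WT replicate 4 (0.0574), and with replicate 5 added, where the difference was -0.70 (0.714).

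Of 30 genes that act beside or below the receptors, 24 were tested and none passed in limma. The 30 include L1-family coreceptors, the Cdk5 kinase, collapsin response mediators (Crmp1 and the Dpysl genes) and Mical enzymes. The Fyn kinase was among those not tested. An unadjusted p under 0.05 was found for 6 of 31 probes, beside 20.7% of all probes tested. The median difference of the 24 genes was -0.0040, with 12 of 24 above 0. Vegfa, the other ligand of neuropilins, differed by -0.14 ± 0.15 (limma adjusted p = 0.642). On chip 2 alone none of the 21 probes of the other semaphorins and plexins and none of the 43 probes of the downstream genes passed in limma. There 7 and 4 had an unadjusted p under 0.05, beside 18.1% of all chip 2 probes tested. None of these genes reached a difference of 1 from both WT arrays in either region.

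**Figure D4:**
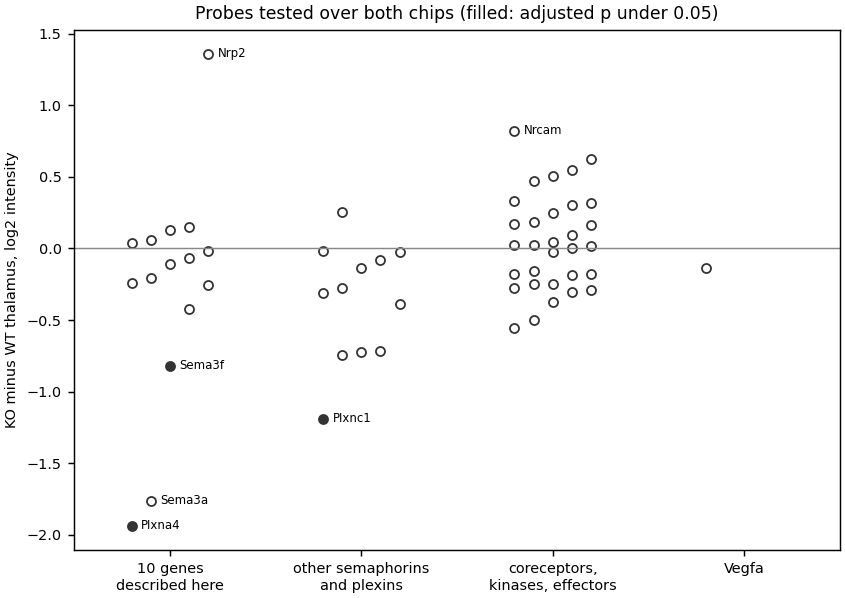
KO minus WT difference in log2 intensity (y axis) of every probe tested over both chips, grouped as the 10 genes described here, the other semaphorins and plexins, the coreceptors, kinases and effectors, and Vegfa; filled circles had an adjusted p under 0.05 and the horizontal spread within a group has no meaning. The filled probes are those of Plxna4 at -1.94, Plxnc1 at -1.19 and Sema3f at -0.82.

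The genes whose levels varied most like those of 2 member probes were found by Pearson correlation over 10 arrays, each value taken as the deviation from the mean of the chip's thalamus arrays. The arrays share a chip and its normalisation, so these values describe likeness only. For Sema3f ILMN_1248740 they were Flrt1 (r = 0.973), Gsg1l (0.962), Hs3st3b1 (0.955), Il11ra1 (0.950) and Ryr1 (0.946), with Spearman's rho between 0.782 and 0.976. Over the 8 thalamus arrays alone Flrt1 was still closest of these at 0.995. For Sema5a ILMN_2604226 they were Gbx2 (r = 0.977, rho = 0.794), Zbtb41 (0.948), Sorcs2 (0.937), Dnah9 (0.925) and Rtraf (0.924). Without the epithalamus and prethalamus arrays the correlation with Gbx2 was 0.626 and that with Rtraf 0.085, so the likeness to Sema5a rested largely on those 2 arrays.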

How the data were processed

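Bead array data of 12 samples on 2 chips were analysed, grouped by the sample descriptions. The deposited tables give, per probe and array, an intensity on a linear scale with no normalization per the file headers of chip 2, and a detection value as a fraction, used as 1 minus a p-value. The authors also deposited log2 tables, which were used as an alternative; BeadStudio, GenomeStudio and lumi are listed, with no role given, per the submitters' processing notes. Intensities were corrected and normalised by neqc (limma 3.58.1, R 4.3.3; offset 16) for the 6 arrays of chip 1 and the 4 kept arrays of chip 2.

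KO and WT were compared with limma (lmFit, eBayes, two-sided, Benjamini-Hochberg over all probes tested, threshold 0.05) with chip as a term, for probes with a detection p under 0.05 on 4 or more of the 8 arrays, and per chip for those detected on 2 or more of 4. A region probe was compared if detected in the region array or on both WT arrays. Of 31459 probes matched between chips, 11 were left out. Gene names were updated through RefSeq tables (19533 probes by accession, 2780 by symbol, 2318 by synonym), and 6817 kept the files' name. On simulated data the joint fit recovered 48 of 100 probes changed 2-fold and 97 of 100 changed 4-fold, with 8 false calls among 13215, and the chip 2 fit 60 of 100 changed 4-fold, with 9 false calls among 21369. The number of arrays limits the precision.

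The members, lists and tests were chosen with earlier results of these data known. Named are all members, other pathway genes past the threshold or with a region difference of at least 1, and the 5 genes most like 2 member probes. Kdr is in the pathway and the endothelial list. Alternatives were no background correction, median scaling, the deposited tables, other detection filters, replicate 5 added, a replicate block, 1 probe per gene, array weights, a 1.5-fold region limit and leaving out each array.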

Additional observations from a re-analysis of the deposited data

Results flagged for a closer look

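In a group of 4 arrays, a value was singled out where its gap to the nearest of the others exceeded 0.83 of the group's range, on log2 values taken as deviations from the mean of the chip's kept thalamus arrays. Chance singles out about 1 in 20 groups, and 32 groups were examined. KO replicate 3 stood apart for the Plxna4 probe ILMN_2520582, at -2.03 against -0.67 to -0.54 on the other KO arrays (0.915 of the range). Without that array the KO minus WT difference was -1.52 and still passed (limma adjusted p = 0.0428). KO replicate 1 stood apart for the Plxnd1 probe ILMN_1214608, at -0.046 against 0.10 to 0.11 (0.936 of the range).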

How the results depend on the processing

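The 2 joint calls among the member probes, Sema3f and Plxna4, both remained with the replicate block, with 1 probe per gene, with median scaling, in the deposited log2 tables and with array weights. The number of member probes called over both chips was 1 (Sema3f) without background correction, without the detection filter and with detection required on every array, 4 in the deposited tables and 0 with replicate 5 added; it was 0 to 2 when 1 array was left out. Over all probes the 353 calls became 168 without background correction, 690 in the deposited tables, 85 without the filter, 15 with replicate 5, 660 with array weights, and 60 to 682 with 1 array left out. On chip 2 the 112 calls became 53 without background correction, 177 with median scaling, 216 in the deposited tables, 0 without the filter, 41 with detection on every array, 4 with replicate 5, and 0 to 689 with 1 array left out; the replicate block gave 2341. The labels do not say whether same-numbered samples are paired, and the main fit did not pair them. The deviations of same-numbered arrays correlated at -0.11 on chip 1 and 0.15 on chip 2. With 2 arrays per genotype on a chip, these values cannot decide the question. The 1 member call on chip 2 became 2 with median scaling and in the deposited tables, 0 without the filter and with replicate 5, 3 with the replicate block, and 0 to 3 with 1 array left out. The cause of these changes was not tested, beyond the number of probes and arrays that each setting fixes.

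In the regions, the members lower in the epithalamus were 1 without background correction and 1 with median scaling, as Plxna2 no longer reached the limit. At a 1.5-fold limit 1 was higher in the epithalamus, and 2 were lower and 3 higher in the prethalamus. Shares over all probes are not given for that limit, so these counts are not read as a result about the members. Leaving out 1 WT array gave 0 to 1 higher in the epithalamus and 0 to 2 in the prethalamus. Over all probes the higher counts rose as well with 1 WT array left out. They went from 110 to between 201 and 456 in the epithalamus, and from 156 to between 267 and 384 in the prethalamus.

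Differences that were near 0 changed sign. With replicate 5 added, Sema5a ILMN_2604226 was 0.081, Sema6a ILMN_1214701 0.14 and Sema6a ILMN_2462284 0.21. Sema6a ILMN_1215472 was -0.048 with array weights, Sema6a ILMN_2705946 -0.057 with median scaling, Plxna2 0.0079 in the deposited tables and Sema5a ILMN_2604224 on chip 2 -0.014 with median scaling. With 1 array left out the ranges were -0.031 to 0.16 for Sema6a ILMN_1215472, -0.053 to 0.17 for Sema6a ILMN_2705946, -0.23 to 0.23 for Plxna2, -0.31 to 0.0073 for Plxna4 ILMN_2635986, -0.25 to 0.13 for Nrp1 ILMN_1237197, -0.026 to 0.36 for Nrp1 ILMN_2669912 and -0.32 to 0.71 for Sema5a ILMN_2604224. Signals near background limit Sema3a on chip 1, Sema3c, Plxna4 ILMN_2520582, ILMN_1214617 and (on chip 2) ILMN_2635986, and Nrp2. They also limit Sema6a ILMN_1215472 and ILMN_2462284 on chip 1, and Sema5a ILMN_2604226 in the epithalamus array.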

Other observations

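The excluded replicate 5 of each genotype was read on chip 2 and normalised with the other 5 arrays of that chip. Its Gbx2 probe read 15.18 in WT and 13.69 in KO, and its Sema3a probe ILMN_2684289 read 8.45 in WT and 6.37 in KO. In contrast, Sema3f ILMN_1248740 read 11.30 in WT and 12.29 in KO, and Plxna4 ILMN_2520582 read 7.48 in WT and 8.66 in KO. For these Sema3f and Plxna4 probes the order of the genotypes was thus the opposite of that on the kept arrays. Nrp2 ILMN_2480957 read 6.79 in WT and 6.34 in KO. On the kept arrays its mean was higher in the KO on each chip, with the genotypes overlapping on chip 2. Sema3c ILMN_1238568, which was detected on none of the kept KO arrays, read 6.85 and was detected on the excluded KO array.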
